A study of Mus musculus with 22 samples.

Results

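The airway and alveolar ion transport genes described here are 10 genes that move salt and water across the lung epithelium, namely Cftr, Ano1, Scnn1a, Scnn1b, Scnn1g, Slc26a4, Slc26a9, Aqp3, Aqp4 and Atp1b1. They were listed by name, with earlier results of these data known, and all 10 were found among the 54373 genes listed in both count tables. RNA was sequenced from lung epithelial cells (ECs) sorted as CD45-EpCAM+ from C57BL/6 wildtype (WT) mice and from mice labelled AhR-KO or CYP1B1-KO, which were backcrossed to C57BL/6 and are written AhR-/- and CYP1B1-/-. AhR is a ligand-activated transcription factor, and CYP1B1 is an oxidising enzyme whose gene AhR controls. Mice were either naive (steady state) or sensitized and challenged through the nose with house dust mite extract (HDM). The labels name no age and do not say whether each library came from a separate mouse, so the p-values measure the spread between libraries. There were 4 WT, 3 AhR-/- and 3 CYP1B1-/- libraries at steady state and 4 of each genotype following HDM, 22 in all.

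The fluid on the airway and alveolar surface is set by salt that epithelial cells secrete or absorb, and water follows. Sodium enters through the epithelial sodium channel ENaC, which is built from the products of Scnn1a (alpha), Scnn1b (beta) and Scnn1g (gamma), and is pumped out at the basal side by the sodium-potassium ATPase, of which Atp1b1 encodes a beta subunit. Chloride and bicarbonate leave through Cftr, the channel affected in cystic fibrosis, through Ano1, a calcium-activated chloride channel, and through the anion transporters Slc26a4 (pendrin) and Slc26a9. Aqp3 and Aqp4 encode water channels, and Aqp3 also passes glycerol. In the lung, type 1 cells cover most of the alveolar surface, type 2 cells make surfactant, and ionocytes are rare airway cells known for high Cftr.

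On the mouse build GRCm38, Cftr lies at chr6:18170687-18322768, Ano1 at chr7:144588549-144751974, Scnn1a at chr6:125320659-125344943 and Scnn1b at chr7:121865038-121918514. Scnn1g lies at chr7:121734479-121768475, 0.0966 Mb before Scnn1b on the same strand. The other loci are chr12:31519827-31559969 for Slc26a4, chr1:131744022-131771504 for Slc26a9, chr4:41092722-41098183 for Aqp3 and chr1:164437109-164458355 for Atp1b1. All members, with Aqp4 placed below, are annotated as protein-coding. Slc26a4 is 3.94 Mb from the targeted gene Ahr on chromosome 12. Exons of Nme7 on the opposite strand overlap 18.7% of the Atp1b1 exons, and those of the antisense gene Gm15592 overlap 1.66% of the Cftr exons, so reads of these pairs cannot be told apart without strand.

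RefSeq promoter windows of GRCm38.p6 were held for 8 of the 10 genes. The 250 bases before the start site are shown for Cftr, the only one of these windows with more than 1 copy of the AhR response element core GCGTG, for Slc26a4 and Aqp3, which had the largest increases in WT following HDM, and for Scnn1g, the most abundant member at steady state. Capitals mark GCGTG or TATAAA on either strand.
Cftr, chr6:18170437-18170686, plus strand: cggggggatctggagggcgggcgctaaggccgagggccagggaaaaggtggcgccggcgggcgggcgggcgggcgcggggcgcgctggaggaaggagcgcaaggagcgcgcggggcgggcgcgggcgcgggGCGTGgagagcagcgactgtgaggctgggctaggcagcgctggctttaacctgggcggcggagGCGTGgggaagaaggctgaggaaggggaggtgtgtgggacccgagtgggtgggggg
Slc26a4, chr12:31559985-31560234, minus strand: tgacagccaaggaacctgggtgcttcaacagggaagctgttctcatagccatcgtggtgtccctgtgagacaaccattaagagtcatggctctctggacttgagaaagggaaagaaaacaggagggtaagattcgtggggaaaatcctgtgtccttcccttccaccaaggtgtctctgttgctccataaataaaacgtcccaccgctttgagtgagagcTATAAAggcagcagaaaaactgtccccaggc
Aqp3, chr4:41098184-41098433, minus strand: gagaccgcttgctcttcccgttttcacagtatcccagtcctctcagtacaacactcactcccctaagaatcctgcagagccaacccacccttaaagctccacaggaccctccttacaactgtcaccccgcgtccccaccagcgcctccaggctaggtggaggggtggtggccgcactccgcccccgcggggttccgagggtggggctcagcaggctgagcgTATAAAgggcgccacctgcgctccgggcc
Scnn1g, chr7:121734229-121734478, plus strand: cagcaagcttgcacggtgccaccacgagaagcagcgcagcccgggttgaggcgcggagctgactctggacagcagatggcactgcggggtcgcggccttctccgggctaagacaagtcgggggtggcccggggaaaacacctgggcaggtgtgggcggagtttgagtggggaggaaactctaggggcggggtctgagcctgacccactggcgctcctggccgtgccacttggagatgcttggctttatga
The Cftr window held GCGTG at 119 to 115 and at 56 to 52 bases before the start site, and that of Atp1b1 held it at 13 to 9. Of all 32851 mouse windows of this length, 28.2% held it. TATAAA was found in the windows of Slc26a4, 31 to 26 bases before the start, of Aqp3, 29 to 24 bases before it, and of Slc26a9, with overlapping matches from 30 to 23 bases before it. It was found in 12.4% of all windows. The STAT motif TTCNNNGAA matched 7.02% of all windows, and its form with a longer spacer 5.85%, and neither matched a member window. These matches are letters in a window and not evidence of binding.

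Total counts ranged from 9654825 to 17878442 per library. The predicted gene Gm10800 took 9.54 to 29.2% of the counts at steady state and 0.00819 to 71.9% following HDM, so that 3 counts corresponded to between 0.107 and 1.36 CPM, which are counts scaled to the normalized size of each library. The targeted genes were not lower in the libraries labelled with their knockout. These are counts over whole genes, not over the deleted part, so they neither check nor refute the labels. In libraries labelled AhR-/-, Ahr was at 15.5 to 20.1 CPM at steady state and 12.8 to 25.5 following HDM, against 6.38 to 12.3 and 9.62 to 20.0 in WT. In libraries labelled CYP1B1-/-, Cyp1b1 was at 3.62 to 5.89 CPM and 4.98 to 13.5, against 0.644 to 1.91 and 0.897 to 2.31 in WT. Directions between genotypes below therefore refer to the libraries labelled with each genotype. The Y-linked gene Ddx3y was at 19.7 to 99.8 CPM in all 10 steady-state libraries, at 67.3 and 69.6 in AhR-/- HDM replicates 3 and 4, and at most 0.0859 in the 10 remaining HDM libraries. For these 2 replicates, an exchange of libraries and a difference in sex cannot be told apart, so that their HDM and genotype labels are uncertain in every AhR-/- HDM value below. Their goblet marker sums were 246 and 203 CPM, against 3.95 to 11.0 in the steady-state libraries and 9.84 to 779 over all HDM libraries. Their type 1 marker sums, 17744 and 22363 CPM, lay within the steady-state range of 16728 to 33384. The same held for their hematopoietic marker sums, 293 and 291 CPM, against 265 to 556. The steady-state and HDM libraries also stand in separate tables named as separate runs, so HDM, run and Y-linked reads cannot be told apart in most libraries.

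The epithelial marker Epcam was counted in every library, at 68.2 to 312 CPM. Summed over 8 type 1 markers, levels were 16728 to 33384 CPM at steady state and 518 to 22363 following HDM. For 8 type 2 markers they were 847 to 5466 and 4852 to 73598. The 20 hematopoietic markers, which the sort against CD45 was meant to deplete, summed to 265 to 556 CPM at steady state and to 1874 to 6043 in WT HDM libraries, against 291 to 1311 in the HDM libraries labelled AhR-/-. Of these, Csf1r alone averaged 227 to 252 CPM in the steady-state groups and 85.8 to 126 in the HDM groups, so that it made up much of the steady-state sum and went against the rise of the list. Foxi1, which defines ionocytes, had 0 to 7 counts per library. In such bulk libraries, fewer cells of a type and less RNA per cell cannot be told apart.

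At steady state, the gamma and beta subunits of the sodium channel and Ano1 had the highest levels of the group. On the RPKM scale (CPM divided by the exon length in kilobases), Scnn1g was at 505 ± 48.7 in WT (SD, n = 4). Scnn1b was at 165 ± 30.2 (SD, n = 4) and Ano1 at 126 ± 32.4 (SD, n = 4), and the libraries of these neighbours overlapped. Atp1b1 followed at 39.7 ± 3.53 (SD, n = 4) and Scnn1a at 28.3 ± 2.72 (SD, n = 4), without overlap. Aqp4 was at 3.39 ± 1.09 (SD, n = 4). Slc26a9, Slc26a4 and Aqp3 were at 1.12, 0.781 and 0.642 RPKM, and Slc26a4 overlapped both Slc26a9 and Aqp3. Cftr was lowest at 0.313 ± 0.103 (SD, n = 4), without overlap with Aqp3. Following HDM, WT libraries no longer had this order. Scnn1g was at 62.8 ± 41.6 RPKM (SD, n = 4), Atp1b1 at 40.8 ± 24.5 (SD, n = 4), Slc26a4 at 38.8 ± 9.38 (SD, n = 4) and Aqp3 at 25.0 ± 23.2 (SD, n = 4), each overlapping the next, and Aqp4 was lowest at 0.537 ± 0.233 (SD, n = 4). The values of all members by library are plotted in CPM.

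**Figure D1:**
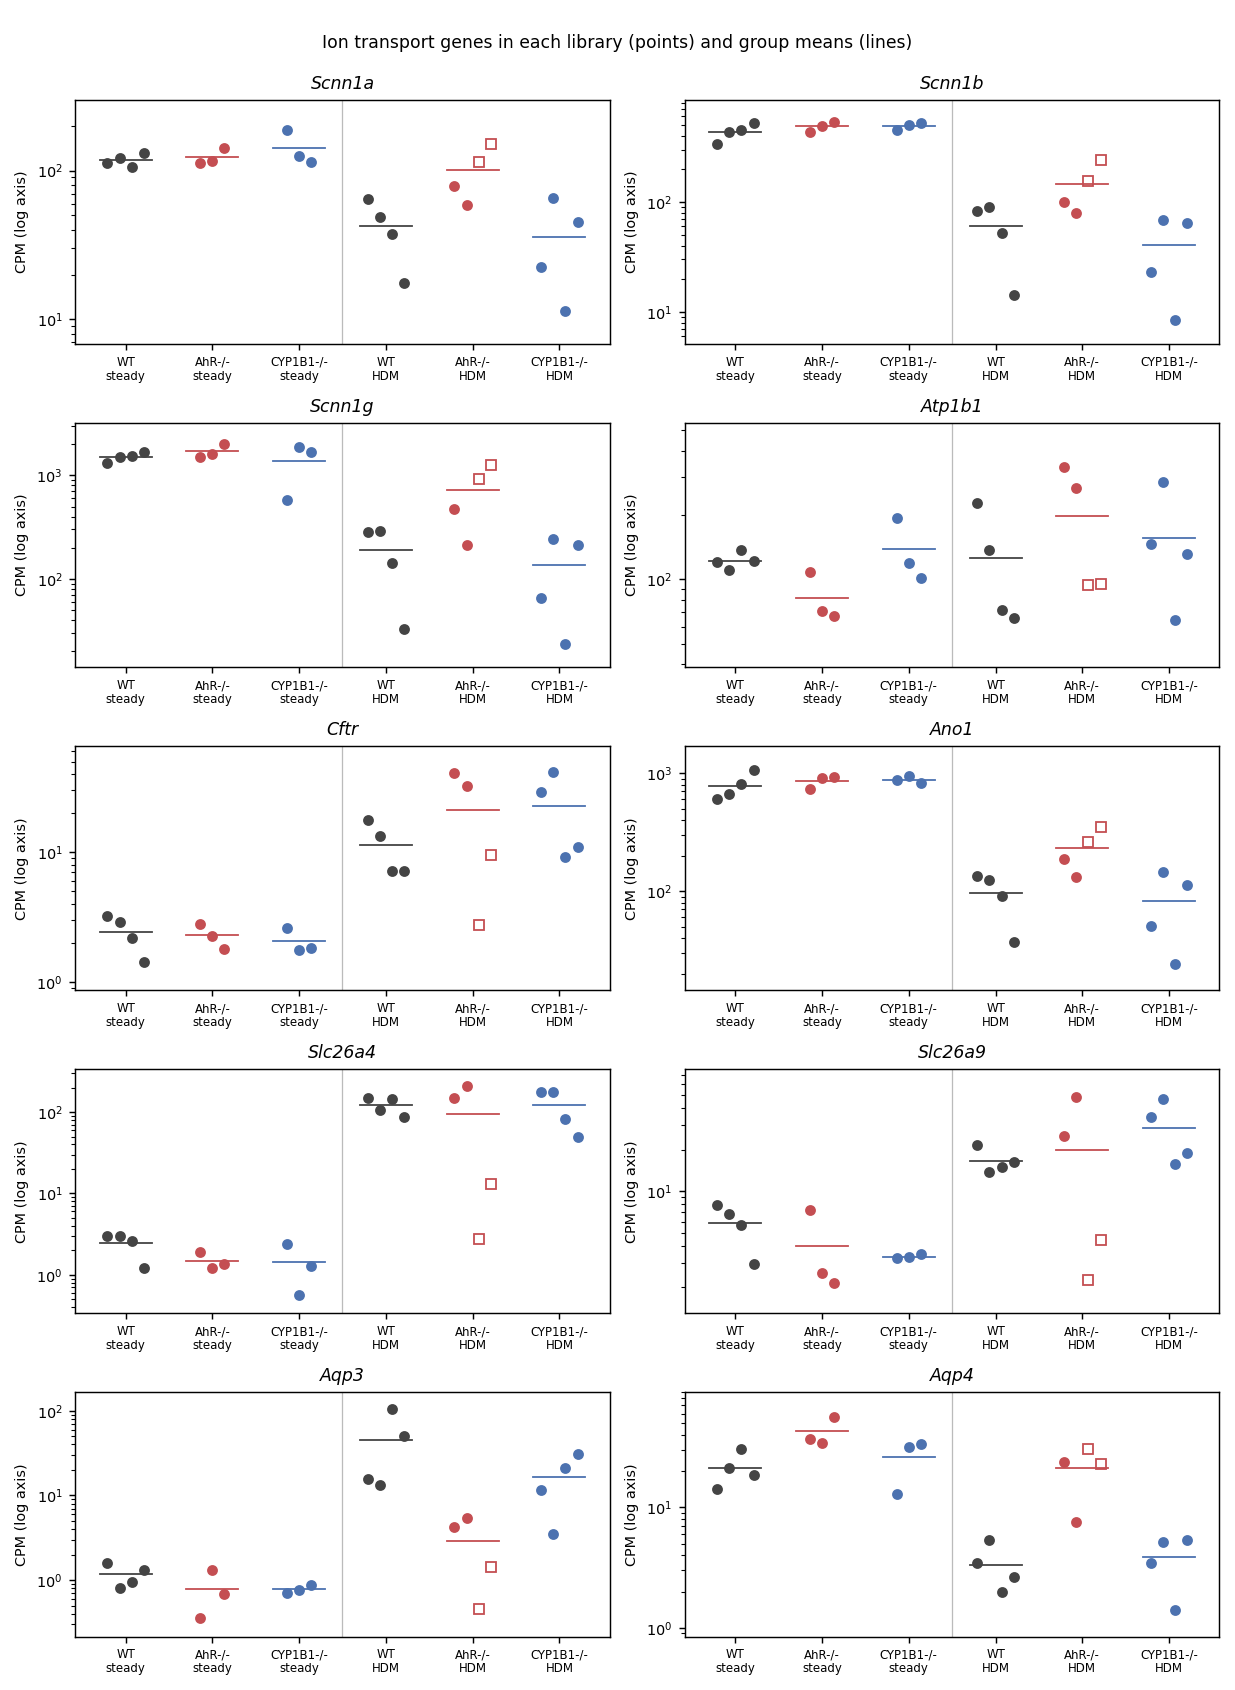
Level of each ion transport gene in each of the 22 libraries, in CPM on a log axis, by group, with a line at the group mean. Open squares are AhR-/- HDM replicates 3 and 4, which carried Y-linked reads. Scnn1a, Scnn1b, Scnn1g, Ano1 and Aqp4 were lower in every WT HDM library than in every WT steady-state library, whereas Cftr, Slc26a4, Slc26a9 and Aqp3 were higher.

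To see how the group differed between HDM and steady state, the states were compared within each genotype with edgeR's quasi-likelihood test over 16639 genes. In WT, 8 of the 10 members passed an adjusted p of 0.05, 3 of them higher following HDM (background 19.0% of genes) and 5 lower (19.4%). Cftr, Slc26a4 and Aqp3 rose, while Ano1, all ENaC subunits and Aqp4 fell. The median log2 fold change was -0.72 over the members and -0.11 over all genes. Libraries did not overlap for 9 members, against 38.9% of all genes. In the libraries labelled CYP1B1-/-, 9 members passed, 4 higher (15.5% of genes) and 5 lower (17.9%), and 9 did not overlap (31.5%). In those labelled AhR-/-, 5 passed, 3 higher (10.6%) and 2 lower (10.1%), and 5 did not overlap (35.9%). Atp1b1 did not pass in any genotype.

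**Figure D2:**
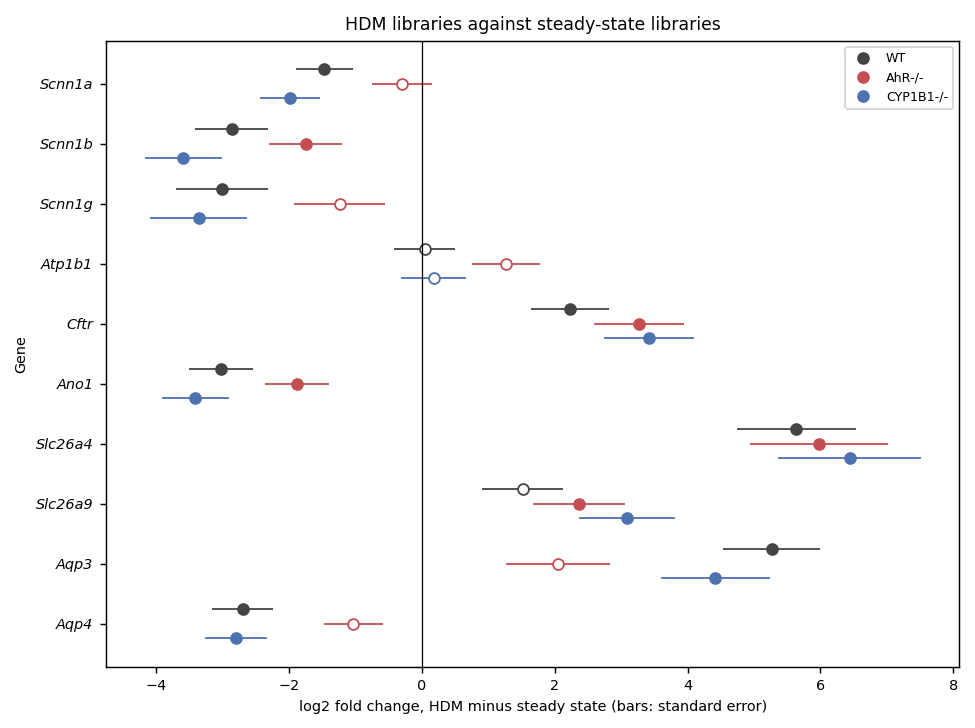
Log2 fold change of each member, HDM minus steady state, in WT (grey), AhR-/- (red) and CYP1B1-/- (blue) libraries, with standard errors as bars. Filled points passed an adjusted p of 0.05, and Slc26a4 had the largest increase in each genotype, at 5.64 to 6.44.

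All sodium channel subunits were lower following HDM in the WT and CYP1B1-/- libraries, whereas only Scnn1b passed in those labelled AhR-/-. Scnn1g was at 1321, 1518, 1529 and 1676 CPM in the WT steady-state libraries and at 284, 293, 142 and 32.6 in the WT HDM libraries. The groups lay far apart, and WT HDM replicate 4 was lowest. The log2 fold change of Scnn1g, with its standard error (SE), was -3.01 (SE 0.69, adjusted p = 0.00138 in edgeR's quasi-likelihood test), an 8.05-fold lower level. Scnn1b was at 334, 432, 448 and 528 CPM at steady state and at 83.5, 89.8, 52.5 and 14.4 following HDM, with the same replicate lowest. It fell by 2.86 (SE 0.55, edgeR adjusted p = 0.000247). Scnn1a, whose product the mouse lung needs to clear fluid at birth, was at 112, 121, 105 and 131 CPM at steady state and at 64.6, 49.0, 37.3 and 17.6 following HDM. Its groups did not overlap either, and it fell by 1.47 (SE 0.43, edgeR adjusted p = 0.00826).

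CYP1B1-/- libraries showed the same direction, with log2 fold changes of -1.99 for Scnn1a, -3.59 for Scnn1b and -3.36 for Scnn1g, all past the threshold. Scnn1g was at 576, 1900.2 and 1687 CPM in their steady-state replicates 2, 3 and 4, and at 64.6, 244, 23.2 and 211 following HDM. Replicate 2 stood apart from the other 9 steady-state libraries in Scnn1g and had the lowest type 1 marker sum of them, 16728 CPM. It also had the lowest Ddx3y of the steady-state libraries, 19.7 CPM, the highest Epcam, 287 CPM, and the highest share of Gm10800, 29.2%. In the libraries labelled AhR-/-, only Scnn1b passed among the subunits (log2 fold change -1.75, SE 0.55, edgeR adjusted p = 0.0274). Scnn1b was at 437, 494 and 531 CPM there at steady state and at 101, 78.8, 155 and 243 following HDM. Scnn1g changed from 1515, 1596 and 2008 CPM to 471, 210.2, 932 and 1268, also without overlap, at a log2 fold change of -1.24 (SE 0.69, edgeR adjusted p = 0.208). The higher HDM values were those of replicates 3 and 4, with Y-linked reads. Scnn1a was at 79.1, 58.6, 115 and 151 CPM in these HDM libraries and at 113 to 143 at steady state, and the groups overlapped. The Scnn1b call in AhR-/- libraries was lost when AhR-/- HDM replicate 1, 2 or 3 or AhR-/- steady-state replicate 1, 3 or 4 was left out, with edgeR adjusted p between 0.0516 and 0.101 and log2 fold changes of -1.84 to -1.43. Without both replicates 3 and 4 it held, at -2.37 (SE 0.70, edgeR adjusted p = 0.019).

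Within a library, the balance of the subunits can be read without a normalization across libraries. The RPKM of Scnn1b per RPKM of Scnn1a was 3.81 to 7.18 (median 6.18) in the 10 steady-state libraries and 1.17 to 2.88 (median 2.07) in the 12 HDM libraries, with no overlap. For Scnn1g per Scnn1a, it was 4.25 to 21.0 (median 18.7) and 2.57 to 11.6 (median 5.67). Apart from CYP1B1-/- replicate 2 at 4.25, the steady-state libraries lay at 16.3 to 21.0, above every HDM library. In WT, the mean log2 ratio changed by -1.52 for Scnn1b and by -1.81 for Scnn1g. For both, an exact two-sided permutation test gave p = 0.0286, the smallest that 4 against 4 libraries allow, and 0.0686 after Benjamini-Hochberg adjustment over 6 such tests. With 4 against 3 libraries, as in the other genotypes, the smallest p is 0.0571, and the adjusted values of the 6 tests could not fall below that either, so that this design could not reach 0.05.

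**Figure D3:**
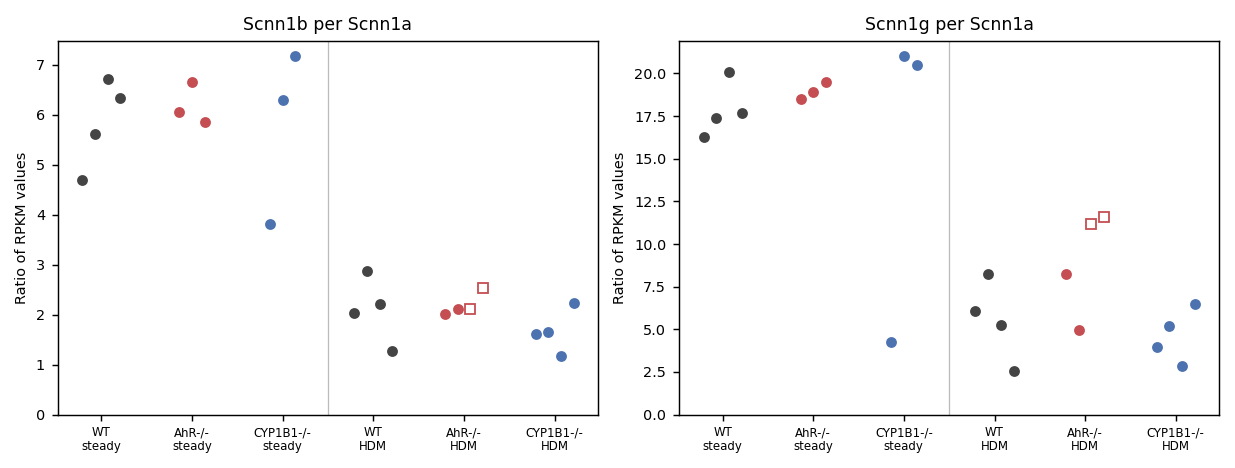
Ratio of RPKM values of Scnn1b to Scnn1a (left) and of Scnn1g to Scnn1a (right) in each library, by group, on linear axes that start at 0. Open squares are AhR-/- HDM replicates 3 and 4. The Scnn1b ratio was 3.81 or more at steady state and 2.88 or less following HDM.

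Scnn1g moved with the type 1 markers across the libraries. Its level spanned 86.5-fold over the 22 libraries and the summed type 1 markers 64.5-fold, yet Scnn1g stayed at 3.44 to 6.21% of that sum (median 5.52%), a span of 1.80-fold. Among HDM libraries, the highest Scnn1g, 1268 and 932 CPM in AhR-/- replicates 4 and 3, came with the highest type 1 sums, 22363 and 17744. The lowest, 23.2 CPM in CYP1B1-/- replicate 3, came with the lowest sum, 518. Scnn1b was at 0.874 to 2.71% of the sum and Ano1 at 1.47 to 5.26%, spans of 3.10-fold and 3.59-fold. Scnn1a varied more against it, from 0.374 to 2.38%, and its median share was 0.423% at steady state and 1.31% following HDM. Of the 8 type 1 markers, 7 fell and 0 rose in WT following HDM, and 8 fell in CYP1B1-/- libraries, while 0 passed in AhR-/- libraries. Their part in the lower ENaC and Ano1 levels was not tested.

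**Figure D4:**
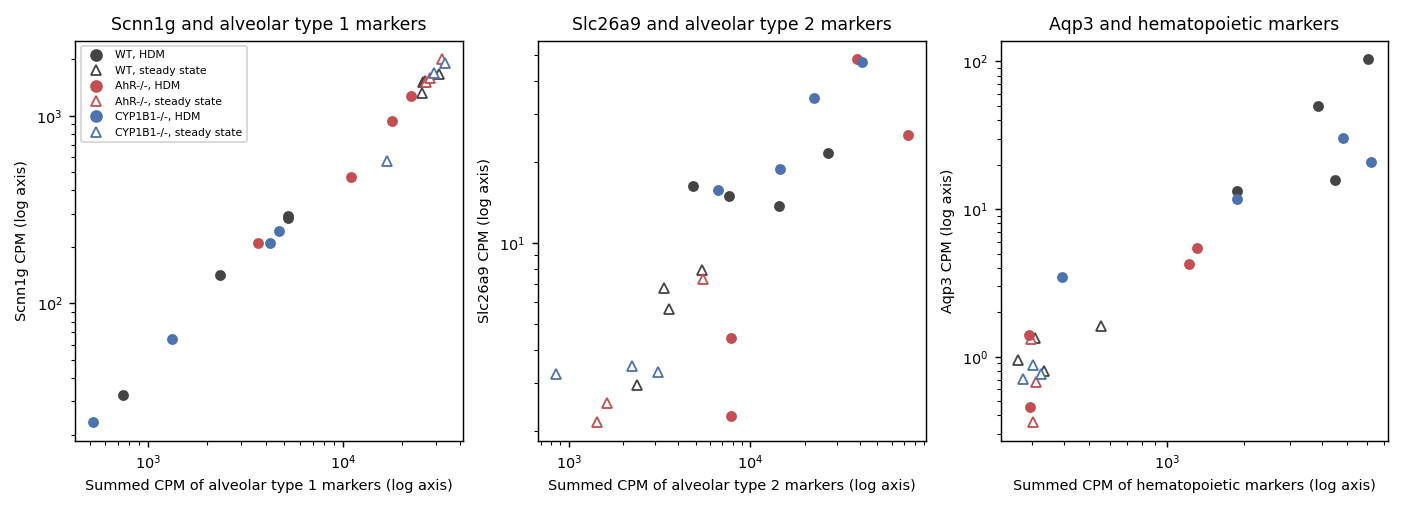
Level of Scnn1g, Slc26a9 and Aqp3 (CPM, vertical) against the summed CPM of type 1, type 2 and hematopoietic markers (horizontal) in each library, on log axes. Filled circles are HDM libraries and open triangles steady-state libraries. Scnn1g stayed at 3.44 to 6.21% of the type 1 sum in all 22 libraries.

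Ano1 was the most abundant chloride channel of the group at steady state. It was at 609, 663, 807 and 1061 CPM in WT steady-state libraries and at 134, 124, 90.5 and 37.4 following HDM, well below them. The log2 fold change was -3.02 (SE 0.48, edgeR adjusted p = 4.11e-05). In the libraries labelled CYP1B1-/-, Ano1 was at 819 to 946 CPM and at 51.0, 145, 24.0 and 113, a log2 fold change of -3.41 (SE 0.51, edgeR adjusted p = 3.66e-05). In those labelled AhR-/-, it was at 731, 903 and 924 CPM at steady state and at 187, 131, 260.2 and 347 following HDM. The decrease there, -1.88 (SE 0.48, edgeR adjusted p = 0.0089), also separated all libraries, and was -2.35 (SE 0.61, edgeR adjusted p = 0.00827) without replicates 3 and 4.

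Cftr went the other way from a very low level. Counts of 29 to 54 reads per library gave 1.43 to 3.22 CPM in the 10 steady-state libraries. WT HDM libraries were at 17.8, 13.4, 7.15 and 7.12 CPM, all above steady state, with a log2 fold change of 2.23 (SE 0.59, edgeR adjusted p = 0.00426). CYP1B1-/- HDM libraries were at 29.0, 41.2, 9.16 and 10.9 CPM, and Cftr rose there by 3.42 (SE 0.68, edgeR adjusted p = 0.000498). AhR-/- HDM libraries were split. Replicates 1 and 2 were at 40.6 and 32.3 CPM, whereas replicates 3 and 4, with Y-linked reads, were at 2.73 and 9.54. Replicate 3 rested on 6 reads and fell within the range of the steady-state libraries. The log2 fold change was 3.27 (SE 0.68, edgeR adjusted p = 0.00267) and 4.06 (SE 0.58, edgeR adjusted p = 8.25e-05) without these replicates.

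Slc26a4, an exchanger of chloride for bicarbonate and other anions, had the largest increase of the group. It was at 0.558 to 2.98 CPM at steady state in all genotypes. In WT HDM libraries it reached 147, 105, 143 and 87.7 CPM, a log2 fold change of 5.64 (SE 0.89, edgeR adjusted p = 4.97e-05), 49.7-fold higher. In the CYP1B1-/- HDM libraries it reached 178, 178, 81.9 and 49.6 CPM, a log2 fold change of 6.44 (SE 1.07, edgeR adjusted p = 0.000102). AhR-/- HDM replicates 1 and 2 were again high, at 148 and 211 CPM, and replicates 3 and 4 low, at 2.73 and 12.9, the former from 6 reads. Slc26a4 rose there by 5.98 (SE 1.04, edgeR adjusted p = 0.000945), and by 6.98 (SE 0.65, edgeR adjusted p = 1.42e-06) without replicates 3 and 4.

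Slc26a9, a chloride transporter of the same family, followed this pattern at a smaller size. It was at 7.94, 6.79, 5.69 and 2.95 CPM in WT at steady state and at 21.5, 13.7, 14.9 and 16.3 following HDM, without overlap, but missed the threshold (log2 fold change 1.52, SE 0.61, edgeR adjusted p = 0.0527). It passed under 7 of 9 alternatives, among them DESeq2 and the fit without the libraries with Y-linked reads (1.57, SE 0.42, edgeR adjusted p = 0.00547). In the libraries labelled CYP1B1-/- it was at 3.26 to 3.48 CPM and at 34.4, 47.0, 15.7 and 18.8, a log2 fold change of 3.09 (SE 0.72, edgeR adjusted p = 0.00191). AhR-/- HDM libraries were at 25.2, 48.2, 2.27 and 4.42 CPM against 7.31, 2.53 and 2.15 at steady state, so that replicates 3 and 4 lay within the steady-state range. The log2 fold change of 2.37 (SE 0.69, edgeR adjusted p = 0.0196) did not pass when AhR-/- HDM replicate 2 or AhR-/- steady-state replicate 3 or 4 was left out (edgeR adjusted p 0.0857 to 0.104). Without AhR-/- HDM replicates 3 and 4 it was 3.26 (SE 0.54, edgeR adjusted p = 0.000325). The type 2 marker sum was 73598 and 38824 CPM in AhR-/- HDM replicates 1 and 2 and 7824 and 7783 in replicates 3 and 4, and 5 of 8 type 2 markers rose in WT and 7 in each of the other genotypes following HDM. Slc26a9 was at 0.0291 to 0.385% of that sum and Cftr at 0.0349 to 0.310%, wider spans than that of Scnn1g against the type 1 sum. What part the type 2 markers had in these increases was not tested.

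The water channels moved in opposite directions. Aqp3 was at 0.359 to 1.61 CPM in the steady-state libraries. In WT HDM libraries it was at 15.7, 13.2, 104 and 49.9 CPM, a log2 fold change of 5.27 (SE 0.73, edgeR adjusted p = 1.63e-05). CYP1B1-/- HDM libraries were at 11.7, 3.46, 21.0 and 30.5 CPM, all above steady state, with a log2 fold change of 4.42 (SE 0.82, edgeR adjusted p = 0.000257). AhR-/- HDM libraries were at 4.26, 5.41, 0.455 and 1.41 CPM. The value of 0.455 was 1 read in replicate 3, where 3 counts would be 1.36 CPM. The change there did not pass (log2 fold change 2.05, SE 0.78, edgeR adjusted p = 0.0662), and did without replicates 3 and 4 (2.67, SE 0.79, edgeR adjusted p = 0.0184). Hematopoietic marker sums were 1874 to 6043 CPM in WT HDM and 393 to 6201 in CYP1B1-/- HDM libraries against 265 to 556 at steady state, and 16 and 15 of 20 markers rose. CYP1B1-/- HDM replicate 2, at 393 CPM, lay within the steady-state range, but much of the steady-state sum was Csf1r, which fell with HDM. Ptprc, the gene of CD45, was at 26.2 CPM in this replicate, against 2.02 to 52.6 (median 4.65) at steady state. Its Aqp3 of 3.46 CPM, from 12 reads, lay above every steady-state library. The part of the hematopoietic markers in the Aqp3 increase was not tested. Aqp4, at chr18:15389496-15410982, was at 14.2, 21.2, 30.3 and 18.7 CPM in WT at steady state and at 3.45, 5.33, 1.98 and 2.63 following HDM, a log2 fold change of -2.70 (SE 0.46, edgeR adjusted p = 7.12e-05). In CYP1B1-/- libraries it went from 12.9, 31.9 and 33.8 CPM to 3.43, 5.19, 1.41 and 5.39, a log2 fold change of -2.80 (SE 0.47, edgeR adjusted p = 9.7e-05). In the libraries labelled AhR-/- it went from 36.9, 34.3 and 56.5 CPM to 23.6, 7.56, 30.5 and 23.0, which did not overlap but did not pass (log2 fold change -1.03, SE 0.44, edgeR adjusted p = 0.102).

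Atp1b1 was present at 67.6 to 194 CPM at steady state and 64.5 to 337 following HDM. In WT it was at 119.9, 110.5, 137 and 122 CPM and then at 228, 137, 71.8 and 65.8, so that HDM libraries lay on both sides of the steady-state range. The log2 fold change was 0.04 (SE 0.46, edgeR adjusted p = 0.956). In AhR-/- libraries, replicates 1 and 2 were at 337 and 268 CPM following HDM and replicates 3 and 4 at 94.2 and 95.3, against 67.6 to 108 at steady state. The change of 1.27 (SE 0.51, edgeR adjusted p = 0.0786) became 1.94 (SE 0.52, edgeR adjusted p = 0.0108) without replicates 3 and 4.

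Genotypes were then compared within each state, with fold changes from the normalization of that state's own table. Both knockout groups share the WT libraries. At steady state, 0 members passed between AhR-/- and WT libraries, where 0% of 15547 genes passed. An unadjusted p under 0.05 was seen for 263 genes, 2 of them members. Aqp4 was at 34.3 to 56.5 CPM in the libraries labelled AhR-/- and at 14.2 to 30.3 in WT, without overlap, at a log2 fold change of 0.98 (SE 0.32, edgeR adjusted p = 0.9999). The other was Atp1b1, at 67.6 to 108 CPM against 110.5 to 137, also without overlap, at a log2 fold change of -0.60 (SE 0.26). Libraries did not overlap for these 2 members and for 3.56% of all genes. Between CYP1B1-/- and WT, 0 members passed (0.0129% of genes), with 901 genes at an unadjusted p under 0.05 and 0 of them members. Between AhR-/- and CYP1B1-/-, 0 members passed as well (0.00643% of genes), with 657 genes and 1 member, Atp1b1, at an unadjusted p under 0.05. DESeq2 also called 0 members in each. Member log2 fold changes ranged from -0.74 to 0.98, from -0.89 to 0.23 and from -0.71 to 0.74 in these comparisons.

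Following HDM, 2 of 10 members passed between libraries labelled AhR-/- and those of WT, Aqp3 lower (background 12.9% of 14161 genes) and Aqp4 higher (9.22%). These were also the members whose libraries did not overlap (19.5% of genes), so that these counts do not set the members apart from all genes. Aqp3, at 0.455 to 5.41 CPM in the libraries labelled AhR-/- and 13.2 to 104 in WT, was 13.9-fold lower (log2 fold change -3.80, SE 0.78, edgeR adjusted p = 0.0261). Aqp4, at 7.56 to 30.5 CPM against 1.98 to 5.33, was 6.31-fold higher (log2 fold change 2.66, SE 0.54, edgeR adjusted p = 0.0261). Without AhR-/- replicates 3 and 4, the log2 fold changes were -3.27 (SE 0.94) and 2.19 (SE 0.59), both at an adjusted p of 0.202, with 0 genes past the threshold and 3126 at an unadjusted p under 0.05. Each call was also lost when AhR-/- HDM replicate 1, 3 or 4 or WT HDM replicate 3 or 4 was left out, to adjusted p of 0.0526 to 0.0921, again with 0 genes past the threshold, while the log2 fold changes stayed at -3.96 to -3.08 for Aqp3 and 2.39 to 2.62 for Aqp4. Leaving out all HDM libraries with over 50% of counts on Gm10800 removed the same 2 AhR-/- replicates together with WT replicate 2 and CYP1B1-/- replicates 1 and 2, and 4 members then passed (12.3% of genes), with Cftr (log2 fold change 1.90) and Slc26a9 (1.19) higher in addition.

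The other members did not pass, although the ENaC subunits and Ano1 had higher means in the HDM libraries labelled AhR-/-. Scnn1g was at 210.2 to 1268 CPM there and at 32.6 to 293 in WT (log2 fold change 1.95, SE 0.82, edgeR adjusted p = 0.0991). The log2 fold change was 1.29 for Scnn1a (edgeR adjusted p = 0.0935), 1.27 for Scnn1b (edgeR adjusted p = 0.176) and 1.27 for Ano1 (edgeR adjusted p = 0.109). Without replicates 3 and 4 these values were 0.81, 0.68, 0.54 and 0.68, and that of Slc26a4 changed from -0.38 to 0.54. Of the marker lists, 8 of 19 hematopoietic markers tested fell and 0 rose in this comparison, and 1 of 8 type 1 markers rose. The type 1 sum was 3669 to 22363 CPM in the HDM libraries labelled AhR-/- and 739 to 5240.2 in WT. The ciliated sum, at 141 to 213 CPM against 64.0 to 121, and the neuroendocrine sum, at 28.1 to 54.5 against 6.09 to 16.7, were higher without overlap, and 2 of 8 and 2 of 3 markers tested rose. Much of each sum was 1 gene, Tppp3 at a mean of 127 CPM against 68.8 and Calca at 29.9 against 7.76. The hematopoietic sum was 291 and 293 CPM in AhR-/- replicates 4 and 3, which had the lowest Aqp3 of the HDM libraries, and 6043 CPM in WT replicate 3, which had the highest. The order was not strict, as CYP1B1-/- HDM replicate 3 had the highest sum, 6201 CPM, with Aqp3 at 21.0 CPM, and WT HDM replicate 1 had 4509 with Aqp3 at 15.7. The part of these markers in the Aqp3 and Aqp4 differences was not tested.

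Between CYP1B1-/- and WT libraries following HDM, 0 members passed (0% of genes, with 233 genes and 0 members at an unadjusted p under 0.05), also with DESeq2, and log2 fold changes ranged from -1.44 for Aqp3 to 1.13 for Cftr. Between AhR-/- and CYP1B1-/- libraries, 0 members passed (0.00706% of genes, with 4234 genes and 6 members at an unadjusted p under 0.05), against 6 members with DESeq2, which called 20.5% of genes. Aqp4 came closest, at a log2 fold change of 2.44 (SE 0.54, edgeR adjusted p = 0.0638), followed by Aqp3 at -2.36 (SE 0.74, edgeR adjusted p = 0.0695).

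**Figure D5:**
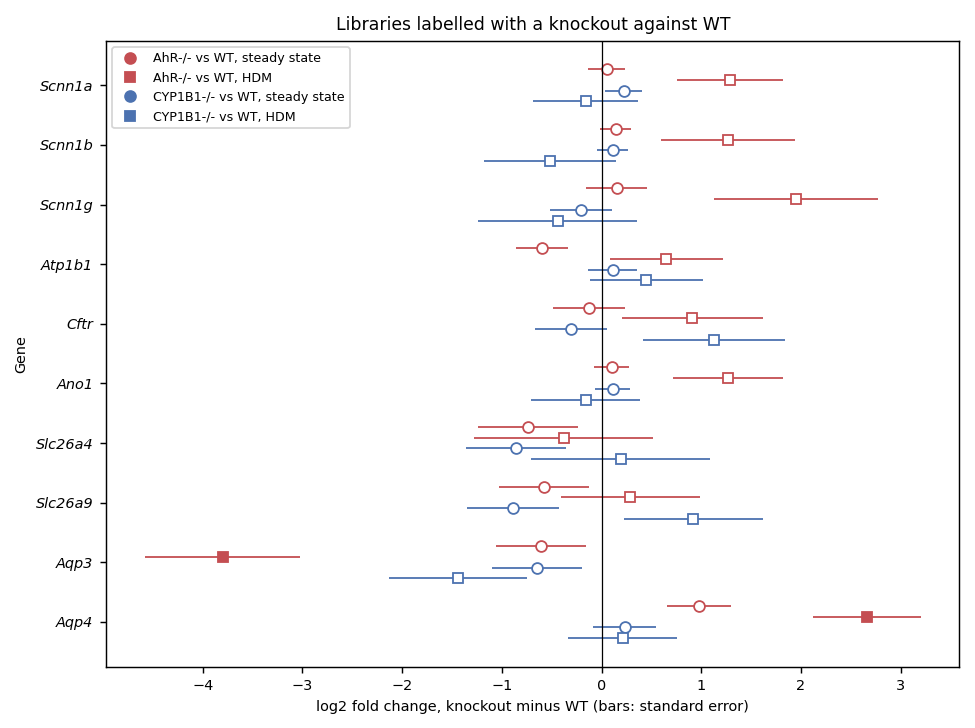
Log2 fold change of each member in libraries labelled AhR-/- (red) or CYP1B1-/- (blue) against WT, at steady state (circles) and following HDM (squares), with standard errors as bars. Filled points passed an adjusted p of 0.05, which were Aqp3 at -3.80 and Aqp4 at 2.66 in AhR-/- HDM libraries.

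Whether the change with HDM differed between genotypes was asked with an interaction term over all 22 libraries. For AhR-/-, 0 members passed (0% of genes, with 3050 genes and 2 members at an unadjusted p under 0.05), against 1 with DESeq2, which called 7.43% of genes. The difference was -3.22 for Aqp3 (SE 1.01, edgeR adjusted p = 0.149) and 1.67 for Aqp4 (SE 0.63, edgeR adjusted p = 0.176). For CYP1B1-/-, 0 members passed (0% of genes, with 382 genes and 0 members at an unadjusted p under 0.05), and 0 with DESeq2. The calls above that passed in one genotype and not in another are therefore not shown to differ between genotypes.

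A wider list of 65 channels, pumps and regulators placed the members among other transport genes. In WT, 64 were tested between states, of which 17 rose and 19 fell following HDM, where 19.0% of all genes rose and 19.4% fell. Kcnn4, a calcium-activated potassium channel, rose from 0.343 ± 0.121 CPM (SD, n = 4) to 26.5 ± 9.11 (SD, n = 4), a log2 fold change of 6.27. Kcne3, a potassium channel subunit, rose by 4.56, Clca1, a protein secreted by goblet cells, by 7.08, and Fxyd5, a modulator of the sodium-potassium ATPase, by 4.90. The hematopoietic marker sum also went from between 265 and 556 CPM in WT at steady state to between 1874 and 6043 in WT HDM libraries, and its part in these increases was not tested. Among those that fell were Nedd4l (-1.85), a ubiquitin ligase that removes ENaC from the membrane and the chloride transporter Clcn3 (-2.29). In AhR-/- libraries 17 rose and 10 fell (10.6% and 10.1% of all genes), and in CYP1B1-/- libraries 18 rose and 16 fell (15.5% and 17.9%). Between AhR-/- and WT following HDM, 3 of 57 were higher and 7 lower, against 9.22% and 12.9% of all genes, so that these counts do not set the list apart. The hematopoietic marker sum was lower in the same comparison, at 291 to 1311 CPM against 1874 to 6043, and its part in these values was not tested. Nr3c1, the glucocorticoid receptor, was higher by 1.45 and Clcn3 by 0.85. Kcnn4, at 3.07 ± 2.04 CPM (SD, n = 4) against 26.5 ± 9.11 (SD, n = 4), was lower (edgeR adjusted p = 0.0261). The same direction was found for Fxyd5 (-2.40), the water channel Aqp9 (-1.83), the scaffold protein Slc9a3r1 (-1.38) and the protease inhibitor Spint1 (-1.24). All these calls were lost without the libraries with Y-linked reads, where 0 genes passed. The same held when AhR-/- HDM replicate 1, 3 or 4 or WT HDM replicate 3 or 4 was left out. In the other 5 genotype comparisons and both interactions, 0 of the list passed, with 0 to 14 at an unadjusted p under 0.05.

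Members differed in the genes that their levels most resembled, by Pearson's r of log2 CPM over the 22 libraries, which share 2 tables and their normalization. Scnn1g was closest to Ager (0.994), a type 1 marker, and Scnn1b and Ano1 to Emp2 (0.994 and 0.996), a membrane protein gene. Scnn1a was closest to Igfbp2 (0.980). Cftr was closest to Gclc (0.986), which encodes a subunit of an enzyme of glutathione synthesis, and also near Cebpa (0.975), a transcription factor gene. Slc26a9 was closest to Slc34a2 (0.979), the phosphate transporter of type 2 cells. Slc26a4 was closest to Slc6a20a (0.983) and Lcn2 (0.982), a secreted antimicrobial protein, and Aqp3 to Dglucy (0.971). Aqp4 was closest to Dtna (0.974). Atp1b1 resembled its nearest gene, Bmp1 (0.919), least of all members.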

How the data were processed

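RNA of sorted ECs was reverse transcribed with a template switch, amplified and tagmented. The authors used bbduk for trimming, GSNAP for alignment to mm10 and featureCounts 2.0.0 for counting on Ensembl genes. The deposited values are raw counts per gene, and the strand setting is not given in the sources used here. Gene identifiers were matched to GENCODE M21 (54147 of 54373), and the 21793 protein-coding genes were kept. In R 4.3.3, edgeR 4.0.16 was used with filterByExpr (minimum count 10, minimum total count 15), TMM, glmQLFit with robust estimation and glmQLFTest, as group means with all genotypes of a table fitted together. All 22 libraries entered a fit of 6 groups for contrasts between states and interactions. Benjamini-Hochberg adjusted p-values of at most 0.05 over all genes tested were called. All 10 members passed the filter in each fit. Printed CPM values use the TMM library sizes of the 22-library fit, and RPKM divides by exon length. Members and gene lists were chosen with earlier results of these data known. From the wider list, at most 5 genes of lowest p per direction and comparison were eligible to be named, and per member the 3 genes of highest correlation. Values of 1 gene of the wider list are not reported here. Alternatives were the likelihood ratio test, DESeq2 1.42.0, RLE size factors, no filter, all genes, dominant predicted genes left out, the replicate number as a block, libraries with Y-linked reads left out and each library left out. Leaving out HDM libraries with over 50% of counts on Gm10800 was chosen after seeing the data. Scripts were tested on simulated data. Total counts per library set the precision, given as the CPM of 3 counts, and ENaC subunit ratios were compared by exact permutation over libraries.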

Additional observations from a re-analysis of the deposited data

Results flagged for a closer look

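In the WT steady-state group, Slc26a4 was at 1.20 CPM in replicate 4, farther below the other 3 libraries (2.57 to 2.98 CPM) than Dixon's limit for 4 samples allows. It was 1 of 40 groups of 4 libraries tested over the members, of which chance would flag about 2.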

How the results depend on the processing

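Between AhR-/- and WT following HDM, 2 members passed, but 5 with DESeq2 (32.4% of genes), 0 with the replicate block, 0 without the libraries with Y-linked reads, 4 without HDM libraries with over 50% of counts on Gm10800, and 0 to 3 with single libraries left out (0 without AhR-/- HDM replicate 1, 3 or 4 or WT HDM replicate 3 or 4). Over all genes, 3129 passed, against 4592 with DESeq2, 4120 with the likelihood ratio test, 1802 with no low-count filter, 1 with the block, 0 without the Y-linked libraries and 1948 without those high in Gm10800. Between AhR-/- and CYP1B1-/- following HDM, 0 members became 6 with DESeq2, 5 with the likelihood ratio test, 2 without the libraries high in Gm10800 and 0 to 6 with single libraries left out (3 without AhR-/- replicate 2 and 6 without CYP1B1-/- replicate 2, where 2683 and 3098 genes passed). Between states in AhR-/-, 5 became 8 without the libraries high in Gm10800 (28.3% of genes) and 3 to 7 with single libraries left out (3 without HDM replicate 2 or steady-state replicate 3 or 4, where 3070, 1720 and 1532 genes passed). For the AhR-/- interaction, 0 became 1 with DESeq2, 1 without the libraries high in Gm10800 and 0 to 2 with single libraries left out (2 without AhR-/- HDM replicate 2, with 1017 genes). Over all genes, AhR-/- against CYP1B1-/- following HDM went from 1 to 2906 with DESeq2, 2458 with the likelihood ratio test and 1339 without the libraries high in Gm10800, and the AhR-/- interaction from 0 to 1236, 221 and 530. At steady state, DESeq2 called 13 genes between AhR-/- and WT, 5 between CYP1B1-/- and WT and 14 between AhR-/- and CYP1B1-/-, against 0, 2 and 1. RLE size factors moved the median log2 fold change of all genes between states in CYP1B1-/- from -0.02 to 0.11, no low-count filter to 0.14, leaving out the Y-linked libraries to 0.15 and leaving out those high in Gm10800 to -0.32. Between states in WT, 8 became 9, with Slc26a9, under 7 of 9 alternatives. The cause of these changes was not tested.

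Directions changed only in values that had not passed. Between AhR-/- and WT following HDM, the log2 fold change of Slc26a4 became 0.54 without the Y-linked libraries and 0.67 without those high in Gm10800 (-1.19 to 0.01 with single libraries left out), and that of Slc26a9 became -0.46 with the block (-0.59 to 0.61). For HDM against steady state, Atp1b1 in WT became -0.21 with the block and -0.17 without the libraries high in Gm10800 (-0.41 to 0.26), Atp1b1 in CYP1B1-/- became -0.04 and -0.66 (-0.13 to 0.74), and Scnn1a in AhR-/- ranged from -0.46 to 0.00 with single libraries left out. Of 453 alternative values of 51 member results, 407 kept direction and side of the threshold, 4 lost and 35 gained a call and 7 reversed.

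Same-numbered HDM libraries correlated from -0.469 to 0.672 in their deviations, against -0.667 to 0.518 for libraries of unlike number. These overlapping ranges cannot tell whether the numbers pair libraries. Under the replicate block, Aqp3 and Aqp4 did not pass between AhR-/- and WT. Depth limits Aqp3, Slc26a4, Slc26a9 and Cftr most, with 1 to 6 reads in AhR-/- HDM replicate 3.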
